A study of Mus musculus with 89 samples.

Results

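Lung gene expression was compared between mice that received PEG-coated copper oxide (CuO PEG) and mice that received the uncoated core material (CuO), both at a daily dose of 2.5 and both challenged with PBS. The members were taken from the sample labels by nanomaterial, dose and challenge, and came to 6 of the 89 samples of the series, 3 for each material. All mice of the series were female BALB/c, 6 to 8 weeks old, and all, the controls included, had been sensitised to the egg protein ovalbumin (OVA) with alum, so the PBS-challenged animals were sensitised but met no allergen in the airways. The materials were given by oropharyngeal aspiration, in which a drop placed at the back of the throat is inhaled, on 4 consecutive days, and lung tissue was taken 24 h after the last of them. The sample descriptions give the dose as 2.5 μg/day, whereas the treatment text writes mg per mouse, and the study's methods use μg. The other groups used here were 7 PBS controls and 8 OVA controls without nanomaterial, carboxylated CuO (CuO COOH) and methylaminated CuO (CuO NH3) at 2.5 with PBS challenge (3 each), CuO PEG and CuO at 2.5 with OVA challenge (3 each), and the same pair of materials with PBS challenge at 10 (4 CuO PEG and 3 core CuO) and at 40 (3 each).

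RNA of 2 samples was pooled for each hybridised sample, so none stands for a single mouse, and the lungs had been lavaged before tissue was collected, so cells that wash out of the airspaces were partly removed. Doses were set by mass of the whole material, and the coated material carried less copper per mass than the core. In physiological saline the paper reports faster dissolution and a larger hydrodynamic diameter for the coated material, which was dispersed from a suspension rather than a powder. A difference between the materials at one dose holds the surface, the amount of copper and these other properties, which cannot be told apart here. In whole lung tissue, fewer cells of a type and less RNA per cell cannot be told apart either.

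Copper oxide particles can release copper ions. The paper considers release inside cells a likelier trigger of the lung effects than release outside them. Cells bind excess metal with metallothioneins, whose genes are switched on by a metal-sensing factor, and answer oxidative and protein damage with the Nrf2 and heat shock programmes. Injured epithelium and macrophages release chemokines that draw neutrophils and monocytes, and acute phase proteins such as serum amyloid A rise with them. Polyethylene glycol (PEG) is a hydrophilic polymer often put on particles to lessen the adsorption of proteins and contact with cells.

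The 6 samples lay on 6 slides that did not mix the materials: the 3 core CuO samples were on slides 1 to 3 (1 labelled with Cy3, 2 with Cy5) and the 3 CuO PEG samples on slides 4 to 6 (2 with Cy3, 1 with Cy5). Slides were therefore linked only through the controls present on both sets, 3 and 4 of the PBS samples and 4 and 4 of the OVA samples. The median foreground intensity was 124.5 to 168 in the core CuO samples and 68 to 78 in the CuO PEG samples, and 56.6 to 68.8% and 53.7 to 64.4% of spots were well above background. Values below are log2 intensities after quantile normalization, and sample values are given with the fitted dye, slide and array position effects removed. Part of a difference can come from these fitted effects. Values before their removal are given for Ccl11, Csf2, Hspa8, Mvd, Cdkn1a, Tekt1 and Pcolce2. Differences are from limma's moderated test fitted to all 89 samples, p-values are adjusted by Benjamini-Hochberg over 22911 genes, errors are standard errors, and a gene is said to be called, or to rise or fall, where the adjusted p was under 0.05 and the log2 difference exceeded 0.58 in size. The p-values rest on the spread between pools.

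Many genes of the acute phase, chemokine, cell division and heat shock lists, and the metallothioneins Mt1 and Mt2, were lower in the lungs of CuO PEG mice than in those of core CuO mice, and the largest differences were those of serum amyloid A, orosomucoid, neutrophil chemokine and Hsp70 genes. Of 22911 genes, 423 (1.85%) were called: 327 (1.43%) were lower with CuO PEG and 96 (0.419%) were higher. Counts of called list members below are to be read beside these shares. Differences were larger among the lower genes, of which 122 fell by at least 1 on the log2 scale and 26 by at least 2, against 6 and 0 of the higher genes. The median difference of all genes was 0.001, with 49.8% of genes below 0. In all 423 called genes the 3 CuO PEG samples lay wholly on one side of the 3 core CuO samples, which was also so in 40.2% of all genes with a value in every sample. With the slide as a random block, 1023 genes were called (359 higher, 664 lower), with the PBS-challenged samples alone 199, and without the third core CuO pool 204, and without the third CuO PEG pool 237.

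Against the PBS controls, CuO PEG at 2.5 gave 0 called genes (0%), and no alternative treatment of the data called any. An unadjusted p below 0.05 was found in 1079 of the 22911 genes, about the share that this threshold gives where nothing differs. Core CuO at 2.5 gave 551 (2.4%), 444 of them higher (1.94%) and 107 lower (0.467%). These comparisons share samples with each other and with the direct one, so their values are given side by side. Among the 327 genes lower with CuO PEG than with core CuO, the median difference from PBS was 0.845 for core CuO and -0.03 for CuO PEG. Among the 96 higher genes the medians were -0.60 and 0.12. With the array in place of the slide as the batch term, core CuO gave 208 called genes against PBS, and without the third core CuO pool 320.

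Acute phase proteins, secreted into blood and airway fluid in inflammation, were the list with the lowest median difference, -1.42 over 16 measured members, of which 10 fell and 0 rose (all genes: 1.43% lower, median 0.001). Saa3, the serum amyloid A made in macrophages and lung (chr7:46711998-46719615, GRCm38.p6), was at 11.05, 10.91 and 10.69 in the CuO PEG pools, 15.08, 15.90 and 15.12 in the core CuO pools, and 10.01 to 12.40 (median 11.26) in the PBS controls. CuO PEG samples were thus within the range of the controls, and all core CuO samples were above both. The difference was -4.49 ± 0.74 (n = 3 against 3, adjusted p = 7.56e-05), a 22.4-fold lower level. Lcn2, lipocalin 2, which binds bacterial siderophores, stood at 12.38, 12.16 and 12.11 with CuO PEG, at 15.80, 15.72 and 15.14 with core CuO, and between 11.90 and 13.00 (median 12.45) in the controls. It was again inside the control range with the coated material and above it with the core, a difference of -3.34 ± 0.40 (adjusted p = 4.26e-07). Saa1 differed by -4.04 ± 0.58 (adjusted p = 1.17e-05), Orm1 by -3.89 ± 0.53 (3.44e-06), Orm2 by -3.37 ± 0.52 (2.43e-05) and Lrg1, a glycoprotein of neutrophil and endothelial biology, by -2.17 ± 0.30 (6.06e-06). Orm1 with Orm2, and Saa1 with its neighbour Saa2, are near-identical copies, and 1 probe each cannot assign the signal to one of them with certainty. Saa2 itself was not called (-1.67, adjusted p = 0.0848), nor were the fibrinogen chains Fga, Fgb and Fgg (-0.04, -0.05 and -0.56).

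**Figure D1:**
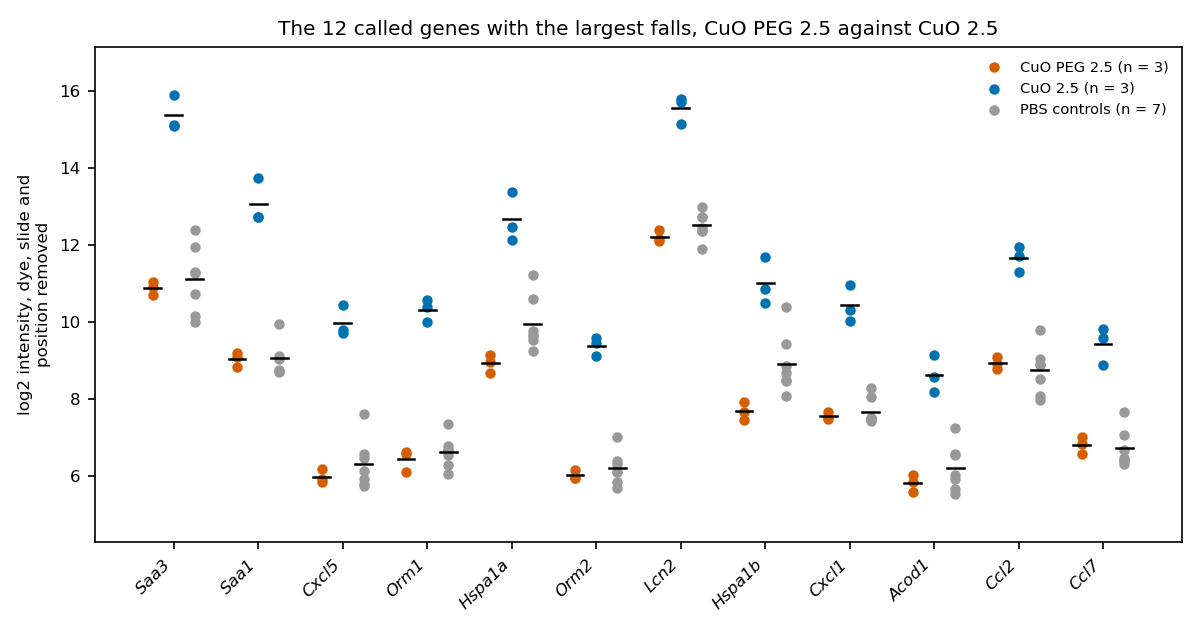
Log2 intensity of the 12 called genes with the largest falls in each CuO PEG 2.5 pool (orange, n = 3), core CuO 2.5 pool (blue, n = 3) and PBS control pool (grey, n = 7), with dye, slide and position effects removed and bars at the group means. In every gene the 3 blue points lie above the 3 orange ones, which the choice of genes required, with Saa3 at 15.08 to 15.90 against 10.69 to 11.05. The orange points lie near or, for Hspa1a and Hspa1b, below the grey ones.

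Neutrophil chemoattractants and their growth factors followed. Of 10 measured members 4 fell and 0 rose, with a median of -0.80, and 3 of the 10 were not well above background in any of the 6 samples. Cxcl5, an epithelial chemokine for neutrophils (chr5:90759298-90761625), was at 5.92, 5.83 and 6.19 with CuO PEG, 9.80, 10.44 and 9.70 with core CuO and 5.73 to 7.60 (median 6.13) in the controls. It was well above background in 0 of the 3 CuO PEG samples and in 3 of 3 core CuO samples, so the CuO PEG level is only a bound and no fold is given (adjusted p = 8.67e-05). Cxcl1, a ligand of the same neutrophil receptor, was at 7.52, 7.49 and 7.66 against 10.03, 10.96 and 10.31, with controls at 7.42 to 8.29 (median 7.50), a difference of -2.87 ± 0.49 (adjusted p = 0.00013). Csf2, which codes for GM-CSF, was at 7.18, 7.04 and 7.14 against 8.31, 8.58 and 7.97 and fell by 1.17 on the log2 scale (adjusted p = 0.000121). In each of these the 2 groups did not overlap, as in every called gene, and the CuO PEG samples were within the range of the controls. Before the fitted effects were removed, Csf2 was at 7.92 with CuO PEG and 8.27 with core CuO. PBS controls on those slides were at 7.87 and 7.25 for Csf2, so most of its difference came from the fitted effects. The fourth member that fell was Cxcl2 (-1.48 ± 0.34, adjusted p = 0.00583), a further ligand of that receptor, while its close relative Cxcl3 (-1.39, 0.0639) and the platelet chemokine Ppbp (0.58, 0.17) were not called.

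Markers of neutrophils themselves were mostly not called. Of 17 measured neutrophil markers 2 fell (11.8%, against 1.43% of all genes), Clec4d (-1.40 ± 0.31, adjusted p = 0.00449) and the decoy receptor Il1r2 (-1.36 ± 0.36, 0.0224), 0 rose, and the median was 0.18. The number called was 0 with the replicate block and 4 with the slide as a random block. The mean level over the list was 8.89 to 9.34 in the CuO PEG samples, 8.94 to 9.25 in core CuO and 8.92 to 9.16 in the controls, ranges that overlap. Both calls were lost without the third core CuO pool (adjusted p = 0.0604 for Clec4d and 0.0517 for Il1r2), and that of Il1r2 also without the second core CuO or the third CuO PEG pool (0.0712 and 0.1). The part of these markers in the chemokine differences was not tested.

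Monocyte chemokines fell in 6 of 10 measured members and rose in 0, with a median of -1.35. Ccl2, the main ligand for monocyte recruitment (chr11:82035577-82037452), was at 8.91, 8.79 and 9.09 in the CuO PEG pools, 11.29, 11.72 and 11.94 in the core CuO pools and 7.98 to 9.79 (median 8.88) in the controls, a difference of -2.72 ± 0.57 (adjusted p = 0.00235). Its neighbour Ccl7, a ligand of the same receptor, stood at 6.83, 6.57 and 7.01 against 8.87, 9.58 and 9.81 and differed by -2.62 ± 0.62 (0.00742), a call that was lost without the third core CuO pool (-2.32, adjusted p = 0.0764). The groups were apart in both, as in every called gene, and the CuO PEG pools stayed within the controls. Ccl3 and Ccl4, neighbours whose annotated spans overlap, differed by -2.04 ± 0.40 (0.00105) and -2.52 ± 0.51 (0.00146), Ccl6 by -0.997 ± 0.208 (0.00216) and Ccl9 by -1.34 (0.00496). Ccl12, Ccl8, Cx3cl1 and the receptor Ccr2 were not called.

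Of 13 measured monocyte and interstitial macrophage markers 2 fell (all genes: 1.43% lower), 0 rose and 11 were not called. With the PBS-challenged samples alone 0 were called. Over the list the mean level was 10.58 to 10.71 in the CuO PEG samples, 10.96 to 11.30 in core CuO and 10.36 to 10.67 in the controls, and 12 of the 13 fitted differences were below 0 with a median of -0.47. The 2 that fell were the complement genes C1qa (-0.82 ± 0.24, adjusted p = 0.0383) and C1qb (-0.97 ± 0.28, 0.0397), whose calls held in 11 and 12 of the 21 fits that left out 1 pool each. Scavenger and lipid macrophage genes fell in 3 of 14 members: Spp1, osteopontin, was at 10.11, 10.56 and 10.60 against 11.94, 12.66 and 12.83 (-2.05 ± 0.41, adjusted p = 0.0015), and Ch25h (-1.35, 0.0251) and the scavenger receptor Msr1 (-1.15, 0.00403) were lower too. Without the third CuO PEG pool 1 of the 14 was called, and without the first core CuO pool 5. The part of the monocyte and macrophage markers in the chemokine differences was not tested either.

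Chemokines of T cells and lymphoid tissue fell in 3 of 11 members, with a median of -0.55. Ccl17, which attracts CCR4-bearing T cells, was at 8.69, 8.68 and 8.72 with CuO PEG, 10.50, 10.59 and 11.03 with core CuO and 8.28 to 9.35 (median 8.52) in the controls, a difference of -2.01 ± 0.32 (adjusted p = 4.12e-05). Cxcl13, a B cell chemokine, was at 7.68, 7.89 and 7.95 against 9.28, 9.96 and 11.06 (-2.26 ± 0.61, adjusted p = 0.023) and was not called without the third core CuO pool (-1.54, adjusted p = 0.255). Ccl20, made by epithelium, differed by -1.34 ± 0.30 (0.00474). All 3 left the groups apart, as every called gene did, and without the sixth OVA control 6 members of the list were called. Acod1, which makes the antimicrobial metabolite itaconate in macrophages and lies in no list, was among the 12 largest falls (-2.82 ± 0.70, adjusted p = 0.0112), with its call lost without the third pool of either material (0.103 and 0.0686).

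Type 2 mediators, which drive eosinophils and mucus in allergy, showed 1 called member of 11 (all genes: 1.43% lower). Il33, an alarmin of epithelial cells, was at 8.99, 9.18 and 8.97 against 9.51, 10.30 and 10.22 with controls at 8.79 to 9.30 (median 9.05), a difference of -0.96 ± 0.25 (adjusted p = 0.0159) that was not called when the second or the third core CuO pool or the third CuO PEG pool was left out (adjusted p = 0.0699, 0.135 and 0.116). Ccl11, the eosinophil chemokine eotaxin, was 8.97, 9.19 and 9.11 against 8.20, 8.35 and 8.88, a difference of 0.62 (95% interval -0.11 to 1.35, adjusted p = 0.384). Before the fitted effects were removed Ccl11 was lower with CuO PEG, 7.21 against 8.37, with PBS controls on those slides at 6.33 and 7.89. Il13 was not well above background in any of the 6 samples.

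Inflammatory cytokines and receptors fell in 4 of 15 members and NF-kB targets in 4 of 15, with medians of -0.34 and -0.49 and 0 risen in either. Tnf was at 6.28, 6.38 and 6.52 with CuO PEG, 7.37, 7.43 and 7.53 with core CuO and 6.39 to 6.63 (median 6.47) in the controls, a difference of -1.05 ± 0.26 (adjusted p = 0.0111) that was not called without the third core CuO pool (0.0761). The receptor antagonist Il1rn (-1.09, 0.0167) and the T cell co-stimulator Tnfrsf9 (-0.97, 0.00556) were lower as well. Of the NF-kB genes, Sod2, the mitochondrial superoxide dismutase, differed by -0.83 ± 0.19 (0.00555), the RNase Zc3h12a by -0.71 (0.0435), and the family members Nfkb2 (-0.60, 0.00834) and Relb (-0.59, 0.00764) lay just past the fold limit. Without the third core CuO pool or the third CuO PEG pool 1 of the cytokine members was called, and without the first CuO PEG pool, or the first or the eighth OVA control, 1 of the NF-kB members (2 without the third core CuO pool or the fifth or the sixth PBS control). Of 11 STAT3 targets 1 was called (all genes: 1.43% lower), Timp1, an inhibitor of matrix proteases (-2.40 ± 0.51, adjusted p = 0.00286). Timp1 is also a member of the matrix list, where Mmp3 (-1.06, 0.0251) and Lox (-0.66, 0.036) were called of 16. Mmp3 and Lox kept their calls in 16 and 12 of the 21 fits that left out 1 pool, and 2 STAT3 targets were called without the first core CuO pool or the sixth OVA control.

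Interferon-stimulated genes were lower in 18 of 18 members with a median of -0.91, but 0 of them passed the test (1 without the seventh OVA control). Cxcl10 was at 6.91, 6.96 and 6.78 with CuO PEG and 8.45, 9.29 and 9.17 with core CuO (-2.09, 95% interval -3.45 to -0.72, adjusted p = 0.0727), and Isg15 at 10.62, 10.67 and 10.64 against 11.74, 12.06 and 12.22 (-1.36, adjusted p = 0.11). The pools of the 2 materials did not overlap in either gene, which was also so in 40.2% of all genes with a value in every sample. The standard errors of Cxcl10 and Isg15, 0.68 and 0.49, were wide against the median of 0.14 over all genes. Genes are not independent replicates, so 18 of one sign are not 18 separate observations.

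Mt1 and Mt2 were lower with CuO PEG, while most genes of copper transport were not called. Of 20 measured metallothionein and copper handling genes 4 fell and 0 rose, and the list median was -0.01. Mt2, a metallothionein that buffers zinc and copper (chr8:94172618-94173567), was at 10.95, 11.17 and 11.17 in the CuO PEG pools, 12.41, 13.17 and 13.34 in the core CuO pools and 10.93 to 11.83 (median 11.21) in the controls. The CuO PEG pools were within the controls and the core CuO pools above them, a difference of -1.87 ± 0.37 (adjusted p = 0.00126), or 3.67-fold lower. Mt1, the gene beside it, stood at 9.70, 9.84 and 9.44 against 10.36, 10.89 and 10.93 (-1.06 ± 0.25, adjusted p = 0.00772), and its call was lost without the third pool of either material (0.0892 and 0.136). The others that fell were Steap4, a metalloreductase for iron and copper that inflammation also raises (7.27, 7.17 and 7.37 against 8.98, 9.22 and 8.92, a difference of -1.77 ± 0.26, adjusted p = 1.48e-05), and the copper-carrying acute phase protein Cp (-0.74 ± 0.12, 2.43e-05), whose 4 probes ranged from -1.52 to -0.06. The copper importer Slc31a1 (0.11), the exporters Atp7a (0.11) and Atp7b (0.12), the chaperones Atox1 (-0.04) and Ccs (-0.14), the zinc exporter Slc30a1 (0.12) and the metal-sensing factor Mtf1 (-0.03) were not called.

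The sequence before the Mt2 start is shown because metallothionein promoters carry metal response elements, bound by the metal-sensing factor. Capitals mark matches on either strand to the element's core, searched as TGCACNC or TGCGCNC, in the 250 bases before the start (RefSeq, GRCm38.p6, chr8:94172368-94172617, plus strand). The reference is C57BL/6J and the mice were BALB/c.
Mt2: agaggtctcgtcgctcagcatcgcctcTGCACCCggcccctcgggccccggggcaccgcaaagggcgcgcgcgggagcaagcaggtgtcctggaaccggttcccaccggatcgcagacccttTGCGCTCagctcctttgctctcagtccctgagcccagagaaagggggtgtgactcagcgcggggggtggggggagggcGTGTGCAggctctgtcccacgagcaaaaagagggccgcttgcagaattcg
It held 3 matches, the farthest 223 and the nearest 50 bases before the start. In windows from 250 bases before to 50 after the start, a match was found in 47.6% of 21 windows of the metallothionein and copper handling list, in 28.8% of 292 windows of genes that fell, in 34.7% of 95 windows of genes that rose and in 29.4% of all 22054 windows. A match is a description of letters, not a site.

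Nrf2 targets, which make glutathione and clear oxidants, fell in 3 of 19 members with a median of -0.21. Hmox1, haem oxygenase 1, was at 9.16, 9.18 and 9.60 with CuO PEG, 11.31, 11.75 and 11.70 with core CuO and 7.53 to 10.19 (median 9.53) in the controls, a difference of -2.28 ± 0.46 (adjusted p = 0.0015). One PBS control stood apart at 7.53, and without it the difference was -1.69 (0.00163). The other members that fell were Gclc, the catalytic subunit of glutathione synthesis (-0.91 ± 0.16, 0.000316), and the cystine carrier Slc7a11 (-0.89, 0.00549), which was well above background in 1 of 3 CuO PEG samples.

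Heat shock proteins and co-chaperones fell in 8 of 14 members and rose in 0, with a median of -0.68. Hspa1a, an inducible Hsp70 (chr17:34969359-34972156), was at 9.14, 8.67 and 8.97 with CuO PEG, 12.13, 13.38 and 12.48 with core CuO and 9.24 to 11.21 (median 9.66) in the controls, a difference of -3.74 ± 0.61 (adjusted p = 7.43e-05). Here every CuO PEG pool lay below the lowest control, although the difference from the controls was not called (-1.02, 95% interval -1.91 to -0.13, adjusted p = 0.997). Hspa1b, which differs from Hspa1a in few bases so that their signals may mix, gave -3.33 ± 0.64 (0.000823). The constitutive Hspa8 differed by -1.10 ± 0.23 (0.00186), the Hsp110 gene Hsph1 by -1.19 (0.00333), Hsp90aa1 by -0.92 (0.00814), Dnajb1 by -0.96 (0.0164), Chordc1 by -0.67 (0.0113) and Hspa5, the chaperone of the endoplasmic reticulum, by -0.69 (0.0134), while Cryab (0.30) and Bag3 (-0.06) were not called. Before the fitted effects were removed, Hspa8 was at 13.46 with CuO PEG and 13.63 with core CuO. PBS controls on those slides were at 13.46 and 12.98 for this gene. With the array in place of the slide as the batch term 1 member of the list was called, without the third CuO PEG pool 3, and without the second or the third core CuO pool 5.

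Genes of cell division fell together. Of 25 mitotic genes 20 fell, 0 rose and all 25 differences were below 0, with a median of -1, and of 20 DNA replication genes 11 fell, with all 20 below 0 and a median of -0.65 (all genes: 1.43% lower, 49.8% below 0). Mki67, the Ki-67 antigen of cycling cells, was at 9.03, 8.87 and 9.01 in the CuO PEG pools, 10.33, 10.48 and 10.95 in the core CuO pools and 8.67 to 9.56 (median 8.90) in the controls, a difference of -1.62 ± 0.23 (adjusted p = 8.26e-06). Top2a, the topoisomerase that untangles chromosomes, was at 7.53, 7.49 and 7.46 against 8.79, 8.92 and 9.30, with controls at 7.18 to 7.81 (median 7.35), a difference of -1.51 ± 0.22 (1.29e-05). In both, the CuO PEG pools were inside the control range and the core CuO pools above it. The mitotic kinase Aurka differed by -1.30 ± 0.23 (0.000258), the ribonucleotide reductase subunit Rrm2 by -1.41 ± 0.25 (0.000316), and the replication factors Mcm10 by -1.36 ± 0.22 (5.80e-05) and Mcm2 by -0.89 ± 0.15 (0.000112). Anln, Bub1, Kif11, Kif2c and Ndc80 were the mitotic members not called, at -0.68 to -0.34. Without the third core CuO pool 9 mitotic and 5 replication genes were called, without the third CuO PEG pool 6 of the replication genes, and with the PBS-challenged samples alone 8 and 5.

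The sequences before the starts of Mki67 and Top2a are shown because many mitotic genes carry a cell cycle genes homology region, the 6 letters TTTGAA, marked in capitals on either strand. Both are on the minus strand of GRCm38.p6 (RefSeq), Mki67 at chr7:135716451-135716629 and Top2a at chr11:99024200-99024439, without the bases inside the annotated gene spans.
Mki67: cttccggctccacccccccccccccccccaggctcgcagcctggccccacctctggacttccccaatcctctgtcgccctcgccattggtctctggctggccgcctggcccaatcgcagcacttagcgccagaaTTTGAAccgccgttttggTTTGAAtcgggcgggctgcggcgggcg
Top2a: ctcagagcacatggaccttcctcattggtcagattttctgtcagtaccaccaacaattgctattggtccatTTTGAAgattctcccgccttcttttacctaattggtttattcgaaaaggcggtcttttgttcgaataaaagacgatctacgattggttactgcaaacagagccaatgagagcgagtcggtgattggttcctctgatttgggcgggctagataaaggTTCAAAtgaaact
Each held 2 matches, at 116 and 98 bases before the start in Mki67 and at 179 and 23 in Top2a. These distances run to the start on which the window was set. That start lies past the end of the printed stretch, because the bases left out come between. The 6 letters were found in 77.3% of the 22 windows that 21 of the 25 mitotic genes had, in 23.3% of the windows of genes that fell, in 13.7% of those of genes that rose and in 15.7% of all windows. The genes that fell include 20 of the 25 mitotic genes, so the 77.3% and the 23.3% are partly of the same windows. Windows were the same length throughout, 250 bases before to 50 after the start.

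**Figure D2:**
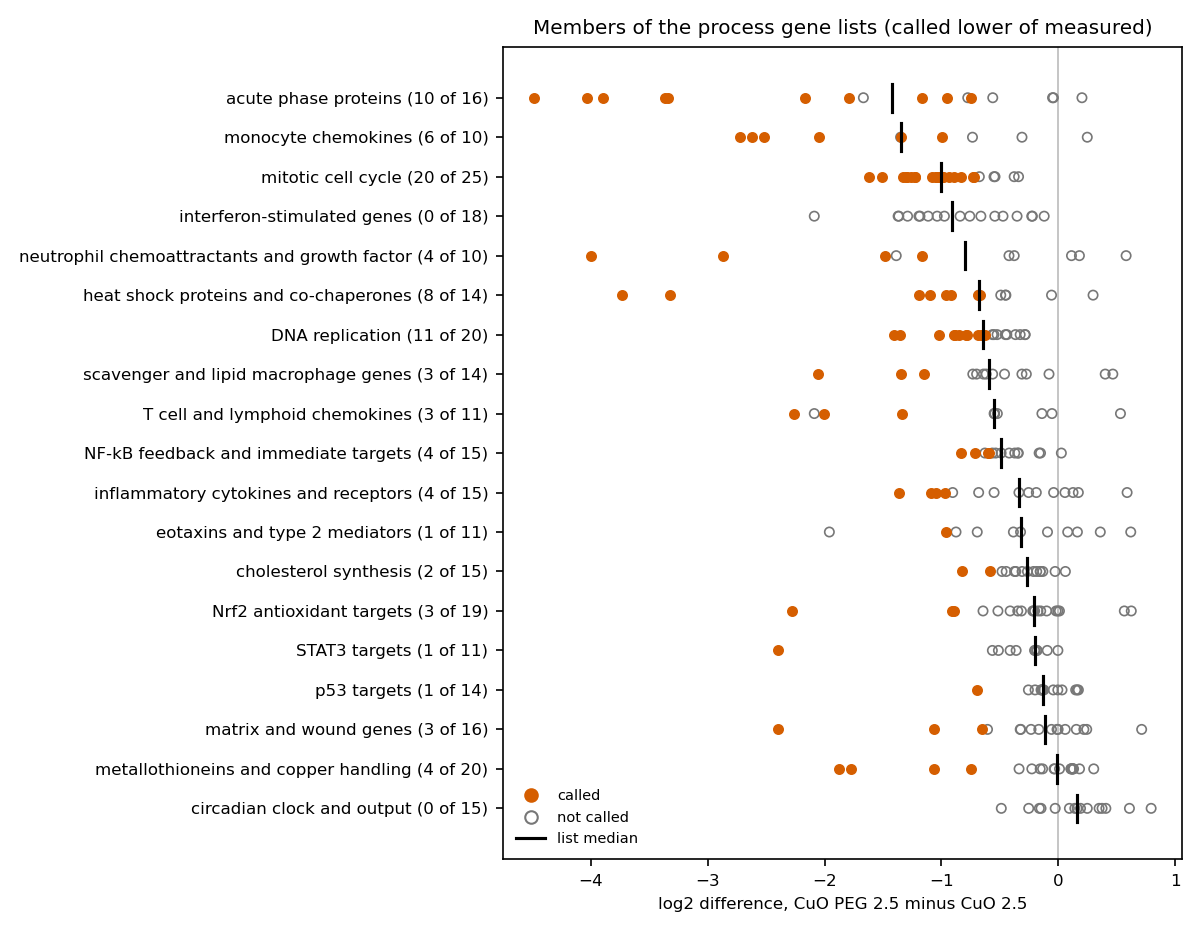
Log2 difference, CuO PEG 2.5 minus core CuO 2.5, of each measured member of the 19 process lists (filled orange, called; open grey, not called; black bar, list median), with the number called lower of those measured beside each name. The acute phase and monocyte chemokine lists sit farthest left, at medians of -1.42 and -1.35, the mitotic list holds the largest share of called members (20 of 25), and the interferon list lies wholly below 0 with 0 called.

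Cholesterol synthesis genes fell in 2 of 15 members, Mvd (-0.82, adjusted p = 0.00109) and Fdps (-0.59, 0.0134), and p53 targets in 1 of 14, the cell cycle inhibitor Cdkn1a (-0.70 ± 0.15, 0.00362), with list medians of -0.27 and -0.13. Of all genes 1.43% were lower. Before the fitted effects were removed, Mvd was at 9.02 with CuO PEG and 9.01 with core CuO, and Cdkn1a at 7.9 and 8.03. PBS controls on those slides were at 9.21 and 8.41 for Mvd and at 8.01 and 7.45 for Cdkn1a. Most of both differences thus came from the fitted effects. Fdps fell under the fold limit or the test in 8 of the 21 fits that left out 1 pool. Over the 38 lists, 94 genes were called, all of them lower, and 329 of the 423 called genes lay in no list.

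Epithelial markers gave 5 calls in 3 lists, all lower with CuO PEG. Foxj1, the master regulator of motile cilia, was at 10.02, 9.97 and 9.69 with CuO PEG, 11.23, 11.05 and 11.33 with core CuO and 9.75 to 10.19 (median 10.05) in the controls, a difference of -1.31 ± 0.20 (adjusted p = 2.79e-05). The cilium genes Rsph1 (-0.78, 0.0272) and Tekt1 (-0.75, 0.0488) made it 3 of 11 ciliated markers, but 1 of the 11 was called without the third pool of either material. Before the fitted effects were removed, Tekt1 was at 10.82 with CuO PEG and 11.11 with core CuO. PBS controls on those slides were at 10.90 and 10.60 for Tekt1, so most of its difference came from the fitted effects. Agr2, a secretory cell protein disulphide isomerase linked to mucin, was at 7.41, 7.38 and 7.01 against 8.59, 8.87 and 10.45, the last in the third core CuO pool (-2.04 ± 0.55, 0.0235), and was not called without that pool (-1.17, adjusted p = 0.318) or without the third CuO PEG pool (0.16). The mean over the 12 club and goblet markers was 10.42 to 10.77 with CuO PEG and 10.97 to 12.62 with core CuO. Sftpd, surfactant protein D, differed by -0.96 ± 0.23 (0.00913), 1 of 11 alveolar type 2 markers (all genes: 1.43% lower), and was not called without the third pool of either material (0.0843 and 0.098).

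The genes that were higher with CuO PEG had smaller differences and were in no list, since 0 list members rose. Pon1, the lipoprotein enzyme paraoxonase 1, was at 10.19, 9.84 and 9.78 in the CuO PEG pools, 8.65, 8.72 and 8.51 in the core CuO pools and 9.50 to 10.27 (median 9.97) in the controls, a difference of 1.31 ± 0.32 (adjusted p = 0.0101), or 2.49-fold. Colq, the collagen tail of acetylcholinesterase, stood at 11.28, 11.23 and 11.40 against 10.60, 9.85 and 9.94 (1.17 ± 0.28, 0.00727). Igfbp3, which binds insulin-like growth factors, was at 13.04, 12.81 and 12.96 against 12.33, 11.79 and 11.57 (1.04 ± 0.25, 0.00988). In these 3 genes the CuO PEG pools lay within the controls and the core CuO pools below them.

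Scgb1c1, a secretoglobin, was at 10.05, 10.08 and 10.06 against 9.10, 9.11 and 9.04, a difference of 0.98 ± 0.20 (adjusted p = 0.00184). The closeness of its pools is partly due to the removal of the fitted effects. Prdm8, a chromatin regulator, differed by 1.05 ± 0.21 (0.00123) and Pcolce2, which aids procollagen processing, by 0.97 ± 0.24 (0.0126). Before the fitted effects were removed, Pcolce2 was at 12.79 with CuO PEG and 12.44 with core CuO. PBS controls on those slides were at 12.60 and 13.26 for Pcolce2, so most of its difference came from the fitted effects. The remaining 6 of the 12 largest rises were Bex2 (1.13, 0.00827), Cstad (1.07, 0.00224), Dapl1 (0.99, 0.00598), Cst8 (0.92, 0.0157), E030013I19Rik (0.92, 0.036) and B130024G19Rik (0.90, 0.00176). All 12 separated the pools of the materials, which the choice of genes required and which held in every called gene. Prdm8, Pcolce2, Scgb1c1 and B130024G19Rik kept their calls whichever pool was left out. Pon1 lost its call without the third core CuO pool (adjusted p = 0.074), Colq, Bex2 and Igfbp3 without the third pool of either material (0.0517 to 0.14), and Cstad and Dapl1 without the third CuO PEG pool (0.0538 and 0.107). Cst8 lost it without the first core CuO or the third CuO PEG pool (0.0915 and 0.0527), and E030013I19Rik kept it in 9 of 21 such fits.

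**Figure D3:**
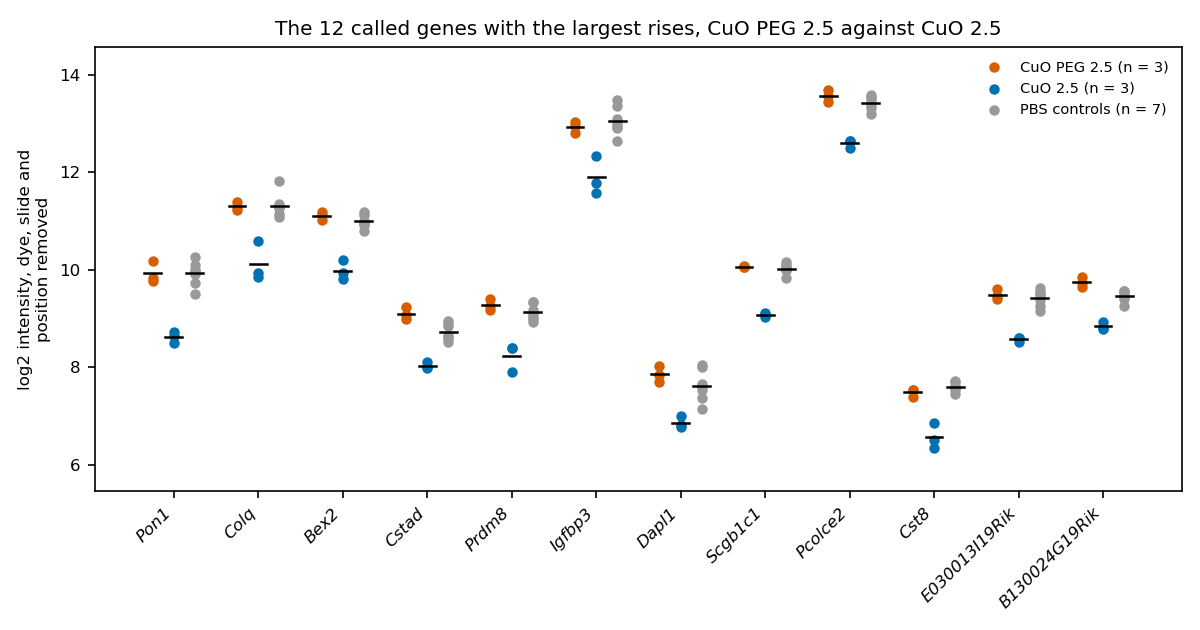
Log2 intensity of the 12 called genes with the largest rises in each CuO PEG 2.5 pool (orange, n = 3), core CuO 2.5 pool (blue, n = 3) and PBS control pool (grey, n = 7), with dye, slide and position effects removed and bars at the group means. The blue points lie lowest in every gene, as for Pon1 at 8.51 to 8.72 against 9.78 to 10.19. That they lie below the orange points was required by the choice of genes. The orange points overlap the grey ones or lie above them.

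The other surface-modified materials at the same dose place the CuO PEG pools further. CuO NH3 shared the slides of CuO PEG, so this comparison needed no control to link slides. It gave 418 called genes (1.82%), 293 lower with CuO PEG (1.28%) and 125 higher (0.546%), and with the slide as a random block 416. It shares the CuO PEG pools with the comparison against core CuO. Saa3 was lower than in CuO NH3 by a difference of -4.54 ± 0.59 (adjusted p = 4.36e-07), Ccl2 by -2.81 ± 0.46 (2.90e-05), Hspa1a by -3.50 ± 0.49 (1.86e-06) and Mki67 by -1.48 ± 0.18 (1.39e-07). For Hmox1 (-1.15, 95% interval -1.89 to -0.42, adjusted p = 0.0506) and Mt1 (-0.61, -1.01 to -0.21, 0.0646) the test was missed. Pon1 (0.88, 0.0278), Colq (0.79, 0.0203) and Igfbp3 (0.73, 0.0196) were higher than in CuO NH3.

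Against CuO COOH, 9 genes (0.0393%) were called, 8 lower with CuO PEG (0.0349%) and 1 higher (0.00436%). Lcn2 (-2.11 ± 0.42, adjusted p = 0.0272), Mki67 (-1.31 ± 0.24, 0.0101), Top2a (-1.14 ± 0.23, 0.0272) and Mcm10 (-1.08 ± 0.23, 0.0404) fell, and Prdm8 (1.15 ± 0.22, 0.0153) rose. Others, named after their values were seen, were the cell division genes Kif23 (-0.82) and Uhrf1 (-0.86) and the antibody transporter Pigr (-0.65), which against core CuO differed by -0.81, -1.16 and -0.88. Few calls do not show that CuO PEG and CuO COOH act alike: the intervals of the difference were -3.70 to -0.63 for Saa3 and -4.11 to -1.56 for Hspa1a, and 1526 genes had an unadjusted p below 0.05. CuO COOH lay on the slides of core CuO, and the count moved from 0 with the PBS-challenged samples alone to 469 with the slide as a random block and, when 1 pool was left out, from 0 without the first CuO COOH or the third CuO PEG pool to 23 without the second PBS control.

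Against the PBS controls, with which all 4 materials were compared, CuO NH3 gave 398 called genes (1.74%), 322 higher (1.41%) and 76 lower (0.332%), and CuO COOH 92 (0.402%), 90 higher (0.393%) and 2 lower (0.00873%). For Mt2 the differences from PBS were 1.72 for core CuO, 1.01 for CuO NH3, 0.45 for CuO COOH and -0.15 for CuO PEG.

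**Figure D4:**
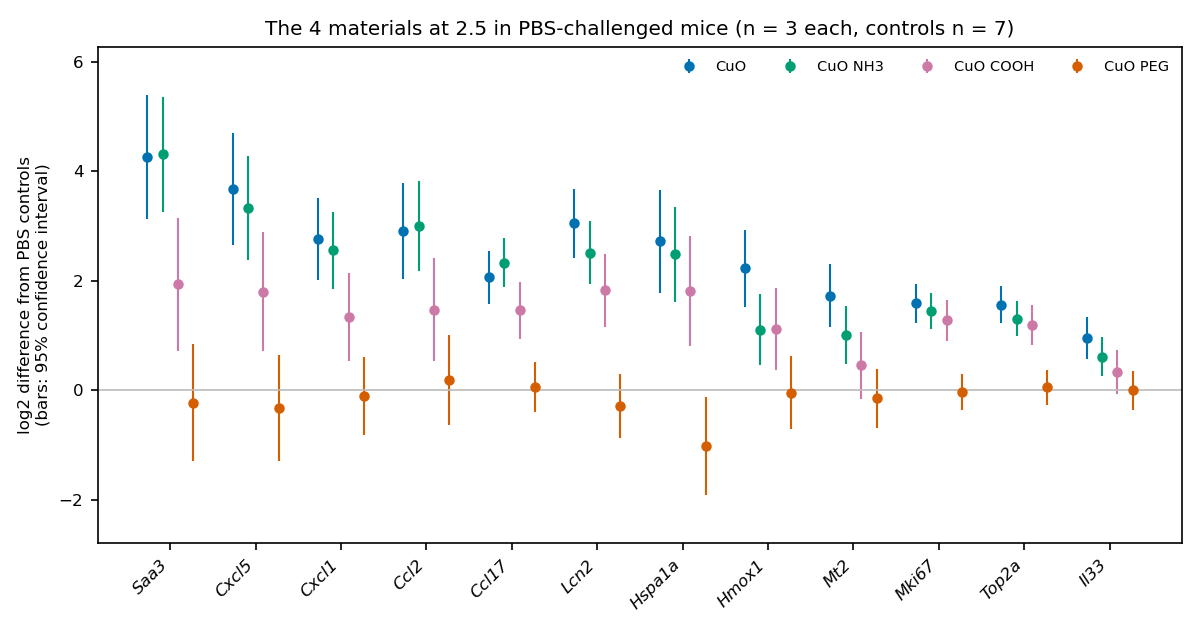
Log2 difference from the PBS controls (n = 7) of 12 genes for core CuO, CuO NH3, CuO COOH and CuO PEG at 2.5 (n = 3 each), with 95% confidence intervals. CuO PEG lies near 0 throughout, except for Hspa1a at -1.02, core CuO and CuO NH3 are the highest pair for most genes (Saa3 at 4.25 and 4.31), and CuO COOH lies between (1.93). Cxcl5 was not well above background in CuO PEG.

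In OVA-challenged mice the same pair of materials gave far fewer calls. CuO PEG + OVA against CuO + OVA at 2.5 gave 1 called gene (0.00436%), Pbld2 (-0.88 ± 0.16, adjusted p = 0.0152, named after its value was seen), with 1639 genes at an unadjusted p below 0.05. The difference between the challenges, tested as an interaction, was called for 106 genes (0.463%), 89 with the more negative difference in the PBS-challenged mice (0.388%) and 17 with the more positive (0.0742%). Saa3 differed between the materials by -4.49 with PBS and 0.13 (95% interval -1.55 to 1.80) with OVA challenge, an interaction of -4.61 ± 0.87 (adjusted p = 0.00352). Mki67 differed by -1.62 and -0.04 (interaction -1.58 ± 0.27, 0.00122), Ccl17 by -2.01 and -0.01 (-1.997 ± 0.374, 0.00317) and Steap4 by -1.77 and -0.03 (-1.74 ± 0.31, 0.00183). Scgb1c1 gave 0.98 and -0.11 (1.08 ± 0.24, 0.0178).

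Other genes were below the test for the interaction, and their differences in OVA-challenged mice had wide intervals. Hspa1a was -1.65 (-3.03 to -0.26) there, Hmox1 -1.39 (-2.43 to -0.35) and Il33 -0.64 (-1.20 to -0.08), with interactions of -2.09, -0.89 and -0.33 (adjusted p = 0.216, 0.638 and 0.797). OVA challenge alone gave 1491 called genes against the PBS controls (6.51%), 1042 higher (4.55%) and 449 lower (1.96%). It raised Saa3 by 2.86, Ccl2 by 2.87 and Mki67 by 2.32 over the PBS controls, so for these genes both materials were measured there on a higher base. The part of this base in the differences between the materials was not tested. The count of 106 fell to 0 with the array in place of the slide as the batch term and to 38 without the second CuO + OVA pool, 41 without the third core CuO pool and 44 to 70 without any 1 of the CuO PEG pools, the second core CuO pool, the third CuO + OVA pool or the second or the third CuO PEG + OVA pool.

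**Figure D5:**
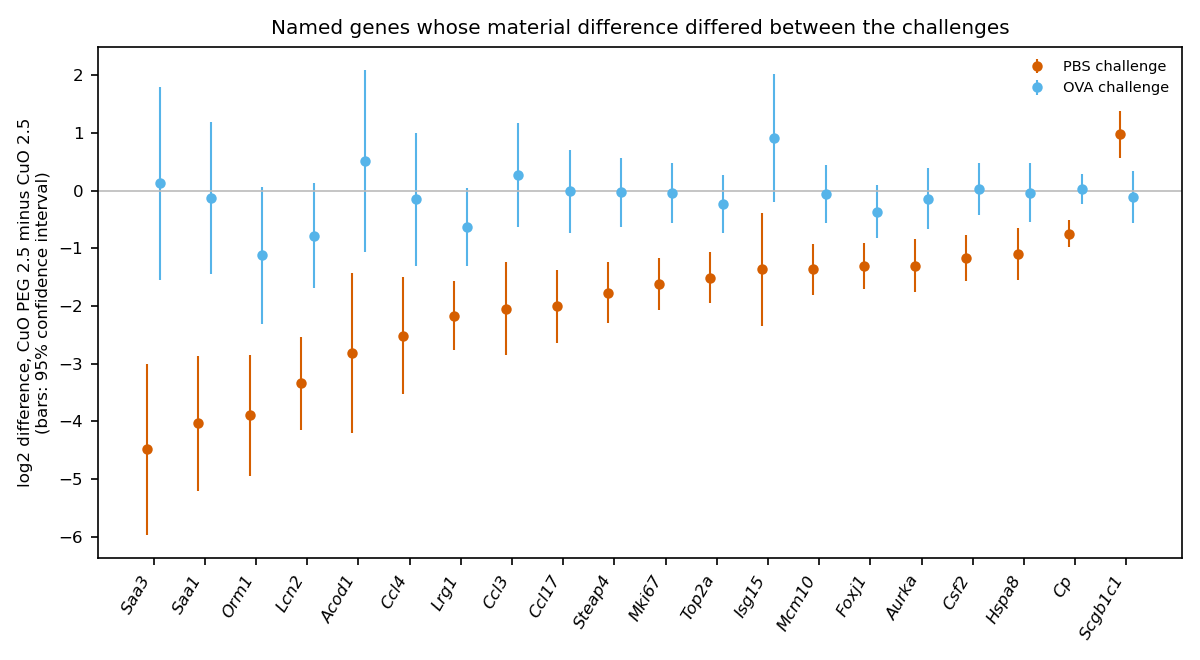
Log2 difference, CuO PEG 2.5 minus core CuO 2.5, with 95% confidence intervals in PBS-challenged (orange) and OVA-challenged (light blue) mice, for the 20 of 104 named genes whose difference was called as unequal between the challenges (all genes: 0.463%). Many genes were named for their difference under PBS challenge, which is part of that test. The OVA-challenged values lie around 0 for most genes (Saa3 at 0.13, Mki67 at -0.04), while the PBS-challenged values reach -4.49, and Scgb1c1 alone is above 0 in the PBS-challenged mice (0.98).

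At the higher doses of the same pair of materials the called genes numbered 243 at 10 (1.06%), with 39 higher (0.17%) and 204 lower (0.89%) with CuO PEG, and 1005 at 40 (4.39%), with 461 higher (2.01%) and 544 lower (2.37%). Those doses share the controls with 2.5 through the slide terms, and no test of the trend was made, so the values stand side by side. Mt2 differed by -1.87 at 2.5, -1.54 at 10 (adjusted p = 0.00825) and -1.95 at 40 (0.000126), and Mt1 by -1.06, -0.91 (0.0234) and -1.52 (1.54e-05). Hmox1 gave -2.28, -1.68 (0.0216) and -1.65 (0.00665), and Mki67 -1.62, -1.01 (0.00511) and -0.78 (0.00941). These kept their sign and their call at all 3 doses.

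The chemokines Ccl2, Cxcl1 and Ccl17 and the acute phase gene Saa3 did not keep theirs. Saa3 was -4.49 at 2.5, -1.71 at 10 (95% interval -3.06 to -0.36, adjusted p = 0.191) and -0.70 at 40 (-2.09 to 0.70, 0.616). Ccl2 was -2.72, -1.47 (-2.52 to -0.43, 0.135) and -0.04 (-1.11 to 1.04, 0.982), and Cxcl1 -2.87, -1.11 (0.204) and 0.12 (0.92). Ccl17 changed sign, from -2.01 at 2.5 over -0.51 at 10 (0.444) to 1.07 at 40 (0.0106). Among the genes that rose, Igfbp3 was 1.04, 1.07 (0.00632) and 1.13 (0.000856) at 2.5, 10 and 40, and Pon1 was 1.31, 0.49 (0.471) and 1.48 (0.000566).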

How the data were processed

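Lung RNA pools were hybridised to Agilent 2-colour arrays, each channel holding 1 sample with no common reference: 89 samples on 46 arrays of 6 slides. The authors deposited scanner files, whose raw foreground intensity was used here (Agilent Feature Extraction 12.0.2.2 per the file headers), and a table of quantile-normalized log2 values, used as an alternative. Median foreground log2 values were quantile normalized without background subtraction. Control spots (3671 of 62976) and outlier-marked spots were left out, probes were named through RefSeq (32994 of 56605) and averaged into 22911 genes after each was centred. limma 3.58.1 in R 4.3.3 fitted 26 groups with dye, slide and array position as terms (50 residual degrees of freedom). The code was checked on data simulated from that same fit with independent noise, which cannot test for noise shared within a slide. The number of arrays limits the precision.

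Samples were grouped by their labels. Named genes were the 12 largest falls and rises among called genes whose pools did not overlap between the materials. Added to these were up to 3 called members of each gene list by p (or up to 2 not called). Ccl2, Ccl7, Ccl11, Tnf, Il33, Il13, Mt1, Mt2 and Hmox1 were always named. Further list members are named only to complete a list's count. The members, lists and rules were chosen with earlier results of these data known. Nothing in the labels ties pools to single animals or separate experiments, so p-values measure the spread between pools, which may be partly technical. Alternatives changed the background correction, normalization, probe filter, probe choice, batch terms and samples fitted, and left out each pool in turn. One called gene of the comparison with CuO COOH is not reported here.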

Additional observations from a re-analysis of the deposited data

Results flagged for a closer look

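In 8 of 104 genes examined, 1 of the 7 PBS controls stood apart from the others: the fourth control in 6 genes, the first in 1 and the third in 1. Chance gives about 1 in 20 genes, a rate that does not speak to how many fall in the same control. The fourth PBS control was highest for Saa1 (9.94, others 8.71 to 9.12), Ccl4 (7.78, others 6.66 to 7.03), Ccl3 (7.97, others 7.00 to 7.31), Mt2 (11.83, others 10.93 to 11.29), Mcm2 (8.25, others 8.06 to 8.10) and Tagln (13.76, others 13.51 to 13.60). The first was lowest for Hmox1 (7.53, others 9.25 to 10.19) and the third highest for Colq (11.82, others 11.09 to 11.35).

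The difference between CuO PEG and core CuO at 2.5 itself differed between PBS and OVA challenge in 20 of the 104 named genes. This was tested as the interaction in limma's moderated test with Benjamini-Hochberg adjustment, which called 0.463% of all genes. Many genes were named for their difference under PBS challenge, which is 1 term of the interaction, so the choice of genes favours a high count and negative signs. The difference of differences (PBS minus OVA) was -4.61 for Saa3 (adjusted p = 0.00352), -3.91 for Saa1 (0.00167), -2.77 for Orm1 (0.02), -2.56 for Lcn2 (0.00311), -1.54 for Lrg1 (0.0263) and -0.77 for Cp (0.00167), all acute phase genes. Among chemokines and cytokines it was -2.37 for Ccl4 (0.0452), -2.32 for Ccl3 (0.00746), -1.997 for Ccl17 (0.00317) and -1.20 for Csf2 (0.00476). Genes of cell division gave -1.58 for Mki67 (0.00122), -1.28 for Top2a (0.0075), -1.30 for Mcm10 (0.00595) and -1.17 for Aurka (0.029). The others were Acod1 at -3.33 (0.0413), Isg15 at -2.28 (0.0452), Steap4 at -1.74 (0.00183), Hspa8 at -1.07 (0.0444), Foxj1 at -0.95 (0.0452) and Scgb1c1 at 1.08 (0.0178). Isg15 differed by -1.36 with PBS and by 0.92 with OVA challenge. With the array in place of the slide as the batch term, 0 genes were called for this interaction.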

How the results depend on the processing

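The count of genes called between CuO PEG and core CuO was within 1.5 times of 423 under 9 of 12 alternatives (364 to 496). The genes themselves changed more: these 9 kept 259 to 422 of the 423. The fewest were kept with dye and array as fixed terms, 259 among 452 calls. The count moved to 1023 with the slide as a random block, 199 with PBS-challenged samples only and 173 with the replicate block, and ranged from 204 to 505 when 1 pool was left out. Replicate numbers did not pair the samples: same-numbered deviations correlated at 0.0169, 0.0717 and 0.0648. Of 71 named calls, 23 were kept under the replicate block and 0 reversed under any alternative, and 19 were called in all 12 alternatives and all 21 fits without 1 pool. The share of lower calls was 77.3%, against 84.5% with loess, 65.5% with the array as a fixed term and 64.9% with the slide as a random block. Core CuO against PBS moved to 208 with dye and array as fixed terms (320 to 657 without 1 pool). CuO PEG against PBS stayed at 0 (714 to 1499 at an unadjusted p below 0.05), and CuO PEG against CuO NH3 gave 334 to 514 under the alternatives and 308 to 427 without 1 pool. With dye and array as fixed terms the comparison with CuO NH3 gave 442 calls, which held 194 of the 418 of the main fit. CuO PEG against CuO COOH moved to 19 with loess, 121 with dye and array as fixed terms, 469 with the slide as a random block, 0 with PBS-challenged samples only and 4 with controls split by slide set, an alternative chosen after seeing the data (0 to 23 without 1 pool). The interaction moved to 52 with loess (53.8% lower) and 0 with dye and array as fixed terms (38 to 143 without 1 pool). The causes were not tested. The interaction could not be run in PBS-challenged samples only, and the split of controls was not run for it or for CuO NH3. Dim probes limit low genes such as Cxcl5 with CuO PEG.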

Other observations

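Of the T, B and plasma, and natural killer cell markers 0 were called in CuO PEG against core CuO at 2.5, and the 3 list medians were above 0. All 9 natural killer cell markers were above 0 (median 0.47), with a mean level of 7.64 to 7.87 in the CuO PEG pools, 7.32 to 7.41 in the core CuO pools and 7.39 to 7.73 in the PBS controls. B and plasma cell markers had a median of 0.48 (9 of 10 above 0) and T cell markers one of 0.28 (9 of 13), with overlapping ranges of the mean level. Without 1 of several pools 1 natural killer or T cell marker was called.

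Cardiac and skeletal muscle markers had a median of 0.53 over 12 genes, with mean levels of 9.32 to 10.14 in CuO PEG, 8.95 to 9.81 in core CuO and 8.59 to 10.41 in PBS. In lists with 0 called members, medians were 0.17 for alveolar macrophages, 0.17 for eosinophils, 0.13 for mast cells and basophils, -0.35 for dendritic cells, 0.18 for alveolar type 1 cells, 0.25 for endothelium, 0.22 for fibroblasts and smooth muscle, 0.06 for erythrocytes, 0.13 for platelets and 0.32 for adipocytes and mesothelium. Circadian clock genes, which follow the hour of sampling, gave 0 calls of 15 and a median of 0.16, with Dbp at 0.79 (limma, adjusted p = 0.207).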
